A study of Mus musculus with 6 samples.

Results

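The nucleosome remodelling and deacetylase complex (NuRD) was followed through 10 of its genes, Chd3, Chd4, Chd5, Hdac1, Hdac2, Mta1, Mta2, Mta3, Mbd3 and Rbbp7, in mouse neurosphere cultures in which the microRNA miR-335 was blocked. All gene probes whose single gene symbol is one of these names were taken, which gave 13 probes for the 10 genes, among 21615 probes that name a single gene and 18069 genes in all. Chd3 was chosen because its intensity had already been seen to differ between the groups of these same arrays, and the other 9 genes because their products belong to the same complex. The Chd3 difference is therefore given as a description and was not tested here as a finding.

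Neural precursor cells in culture form floating clusters called neurospheres. These were grown from the cortical neuroepithelium of C57BL/6 mouse fetuses at embryonic day 12.5, taken from the dorsal telencephalic vesicles, in serum-free medium with 20 ng/ml bFGF, 20 ng/ml human EGF and 0.15 ng/ml LIF. The 3 control cultures received a 2'-O-methyl modified nonsense oligonucleotide (2' O Me-EGFP), and the 3 anti-miR-335 cultures a 2'-O-methyl modified antisense oligonucleotide against miR-335 (2' O Me-335). The labels give the length of treatment as 24 with no unit, the mRNA was read on single-colour CodeLink mouse arrays, and since no miRNA was measured in the values used, nothing here shows how far miR-335 was blocked. The submitters call the 3 replicates per group independent without saying what was repeated, so the errors measure the spread between these 6 samples.

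NuRD joins an ATP-driven nucleosome remodeller with histone deacetylases and is best known for repressing transcription. CHD3, CHD4 and CHD5 are alternative remodelling motors of the complex, and in the developing mouse cortex they are known to take over from one another as precursors turn into neurons. HDAC1 and HDAC2 remove acetyl groups from histones, MTA1, MTA2 and MTA3 form the scaffold that holds the deacetylases, MBD3 and its alternative MBD2 link the parts and, in the case of MBD2, bind methylated DNA, and RBBP4 and RBBP7 bind histones.

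The 2 groups differ in the oligonucleotide they received, and the antisense one is directed against the microRNA miR-335. RefSeq (GRCm38.p6) places its hairpin at chr6:30741299-30741396 on the plus strand, and its mature arms are shown 5′ to 3′ with the seed, bases 2 to 8, in capitals.
mmu-miR-335-5p: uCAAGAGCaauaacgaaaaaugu
mmu-miR-335-3p: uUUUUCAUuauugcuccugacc
The 5p arm lies at chr6:30741314-30741336 and the 3p arm at chr6:30741354-30741375. The arms do not share a seed: a site paired to the 5p seed reads GCUCUUG in an mRNA, and one paired to the 3p seed AUGAAAA. The labels do not say which arm the oligonucleotide covers. Transcript sequences were not used here, so none of the values below distinguishes genes with such a site from genes without.

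The intensity of a probe is linear, 1 unit being the median of its array, and group values are mean ± SD (n = 3 each). A log2 difference is positive where the anti-miR-335 cultures were higher, and its standard error (SE) comes from limma, a linear model fitted across all gene probes. All 13 NuRD probes exceeded the background limit, set from the negative control spots, on all 6 arrays. On the replicate 1 arrays, the only ones with scanner output here, all 26 spots of these probes carried the flag for good quality, and their mean signal was 2.05 to 80.8 times the local background.

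Control replicate 1 did not group with the other controls. It correlated with them at 0.973 and 0.980 and with the anti-miR-335 arrays at 0.983 to 0.985 (Pearson's r of log2 intensity over 17843 probes above background on all arrays, as a description). Control replicates 2 and 3 correlated with each other at 0.993, and control replicate 3 with the anti-miR-335 arrays at 0.9753 to 0.9835. By limma with Benjamini-Hochberg adjustment, 0 of 34847 gene probes passed an adjusted p of 0.05 on all 6 arrays, although 3162 had an unadjusted p under 0.05, and 1100 passed without control replicate 1. Of 10 neural precursor markers 9 were measured, and 8 exceeded background on all arrays, but the dorsal marker Emx1 did on none. The other dorsal genes listed, Emx2 at 1.62 to 2.45 and Pax6 at 11.6 to 18.4, exceeded it on all 6 arrays. Ventral telencephalon markers were present too, 4 of the 6 measured exceeding background on all arrays. Among other cells the cultures could hold, the defining markers Ptprc of leukocytes, Pecam1 and Cdh5 of endothelium and Col1a1 and Col1a2 of mesenchyme were not above background on any array. Other markers of these cells were: on at least 3 arrays, 2 of 5 measured microglial genes exceeded background (Trem2 on 6 and Cx3cr1 on 5 arrays), 3 of 6 endothelial genes (Kdr on 5, Tek and Cldn5 on 3) and 1 of 6 mesenchymal genes (Pdgfrb on 3), against 0 of 3 erythroid genes.

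Among the remodelling motors, Chd3 was lower in the anti-miR-335 arrays while Chd4 and Chd5 overlapped between the groups. The Chd3 intensity in controls 1, 2 and 3 was 12.2, 11.0 and 13.3, and in the anti-miR-335 cultures it was 8.62, 8.76 and 8.21 in the same replicate order, which is kept below. The groups did not overlap, the lowest control lying above the highest anti-miR-335 array, and the anti-miR-335 arrays lay closer together than the controls. The means were 8.53 ± 0.288 against 12.2 ± 1.15, a log2 difference of -0.51 ± 0.11 (SE), a change of -29.7% in intensity. In bulk RNA, fewer cells that express the gene and less of its RNA per cell cannot be told apart. This is the only Chd3 probe, and the platform annotation ties it to the gene through a single expressed sequence tag, so no second probe bears on the value.

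Chd4, the main remodelling ATPase of the complex in dividing cells, lay at 49.4, 38.4 and 39.5 in the controls and 38.3, 48.5 and 46.3 in the anti-miR-335 arrays. Control replicate 1 had the highest value of all and anti-miR-335 replicate 1 the lowest, so the groups overlapped completely. The log2 difference was 0.07 ± 0.14 (SE; 95% interval -0.23 to 0.37). Chd5, the motor associated with neurons, lay at 1.04, 1.11 and 1.14 in the controls and 1.05, 1.07 and 0.962 in the anti-miR-335 arrays, above background but low. Like Chd3, Chd5 was read by a single probe tied to it through an expressed sequence tag. Its log2 difference was -0.10 ± 0.18 (SE; 95% interval -0.50 to 0.31), so its interval reaches down nearly to the Chd3 difference.

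**Figure D1:**
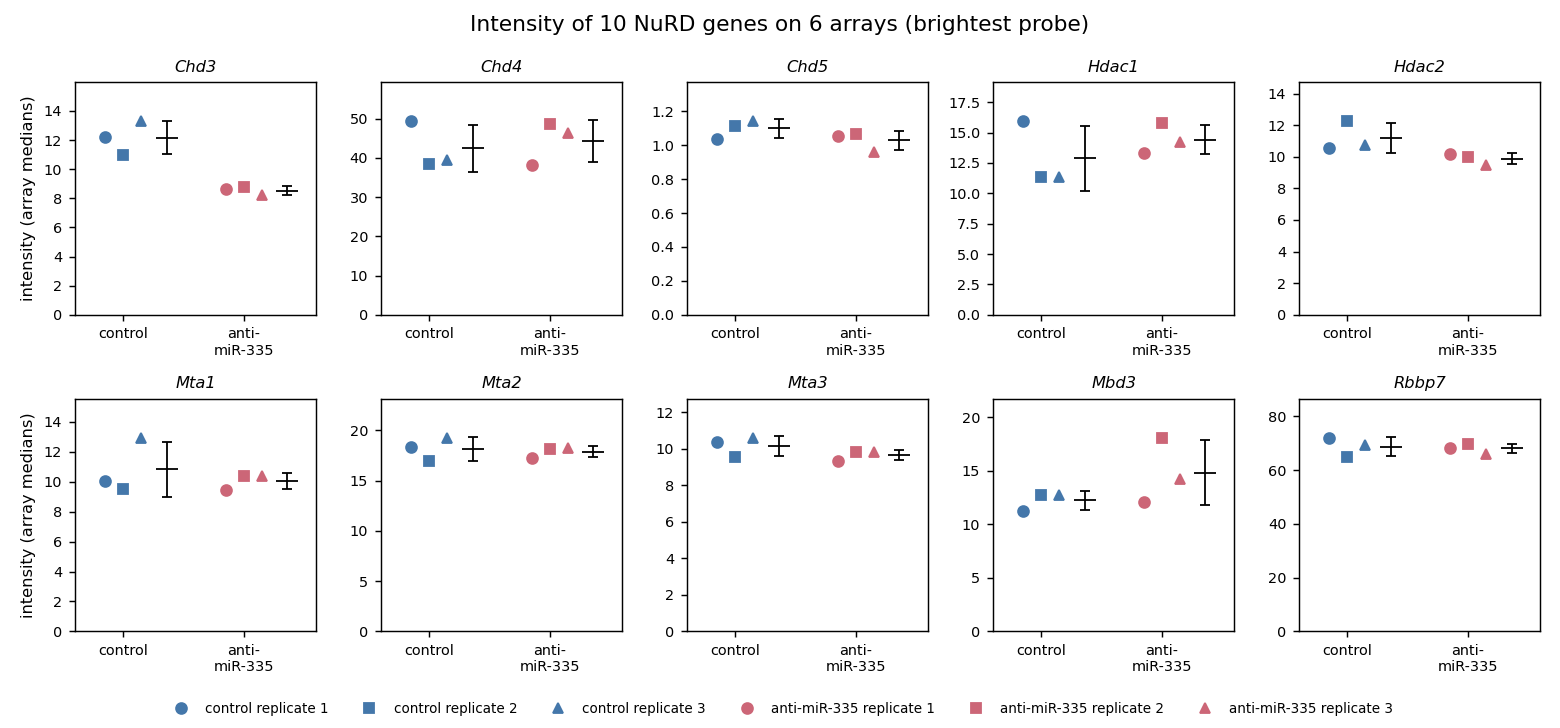
Intensity in units of the array median (y axis, from 0) of the brightest probe of each of 10 NuRD genes on 3 control (blue) and 3 anti-miR-335 (red) arrays; symbols mark the replicate number and the black bars the mean ± SD. Chd3 lies at 11.0 to 13.3 in the controls and 8.21 to 8.76 in the anti-miR-335 arrays, whereas control replicate 1 of Chd4 and Hdac1 lies above every other array.

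The deacetylase genes had differences of opposite sign. Hdac1 lay at 15.9, 11.3 and 11.4 in the controls and 13.3, 15.7 and 14.2 in the anti-miR-335 arrays. Control replicates 2 and 3 lay below all anti-miR-335 arrays, but control replicate 1 was the highest of the 6. The log2 difference was 0.18 ± 0.14 (SE) on all arrays and 0.35 ± 0.09 without control replicate 1, so its size depended on that array. Hdac2 lay at 10.5, 12.3 and 10.8 in the controls and 10.2, 10.0 and 9.48 in the anti-miR-335 arrays. Its groups did not overlap, though the lowest control and the highest anti-miR-335 array were close, and the log2 difference was -0.18 ± 0.10 (SE; 95% interval -0.41 to 0.05), an interval that includes 0. 

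Of the scaffold genes, Mta2 lay at 18.3, 16.9 and 19.3 in the controls and 17.2, 18.1 and 18.3 in the anti-miR-335 arrays. The groups overlapped and the log2 difference was -0.02 ± 0.10 (SE; 95% interval -0.24 to 0.20), so a fall as large as that of Chd3 lies outside its interval. Mta1 was read by a pair of probes that disagreed. The brighter, built on its RefSeq mRNA, lay at 10.0, 9.53 and 12.9 in the controls and 9.45, 10.4 and 10.4 in the anti-miR-335 arrays, a log2 difference of -0.09 ± 0.13 (SE). The dimmer, built on an expressed sequence tag, lay at 1.62, 1.75 and 1.83 in the controls and 2.09, 2.49 and 2.17 in the anti-miR-335 arrays, with no overlap and a log2 difference of 0.38 ± 0.15 (SE). The dimmer probe's difference lay 0.47 above the brighter one's on the log2 scale, so no single direction can be given for Mta1. The pair of Mta3 probes overlapped between the groups on both, with log2 differences of -0.07 ± 0.10 and 0.07 ± 0.15 (SE).

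Mbd3, the linker subunit that is required for a stable complex, lay at 11.2, 12.7 and 12.8 in the controls and 12.1, 18.1 and 14.2 in the anti-miR-335 arrays. Anti-miR-335 replicate 2 was far above the rest and replicate 1 lay within the control range, and the log2 difference was 0.26 ± 0.14 (SE; 95% interval -0.06 to 0.58). Without anti-miR-335 replicate 2 it was 0.11 ± 0.13 (SE). The histone binding subunit gene Rbbp7 gave 72.1, 64.8 and 69.4 in the controls and 68.4, 69.6 and 66.1 in the anti-miR-335 arrays on its brighter probe, a log2 difference of -0.01 ± 0.11 (SE). Its other probe lay at 30.4, 31.4 and 26.6 in the controls and 30.3, 34.0 and 32.0 in the anti-miR-335 arrays, a log2 difference of 0.13 ± 0.11 (SE). On both Rbbp7 probes the groups overlapped.

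Taken over the 13 probes, 6 differences were positive and 7 negative, with a median of -0.01. All 34847 probes had a median of 0.01, and the 17843 above background on every array one of 0.03. By limma none of the 13 passed an adjusted p of 0.05, where 0% of all probes did. An unadjusted p under 0.05 was reached by 2 of the 13, Chd3 and the dimmer Mta1 probe. The same held for 9.07% of all probes, and for 2066 of the 17843 above background on every array. The 12 probes other than Chd3 had adjusted p between 0.507 and 0.981. For 3 of the 13 probes the groups were fully separate, against 18.2% of all probes above background on every array. The 2 lower ones were Chd3 and Hdac2 (8.46% of all such probes were lower), and the 1 higher one was the dimmer Mta1 probe (9.7% were higher). The spread within a group, as the SD over the mean, ran from 4.85% to 20.7% in the controls (median 8.30%) and from 2.59% to 20.4% in the anti-miR-335 arrays (median 5.36%).

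Without control replicate 1, the Chd3 difference was -0.50 ± 0.10 (log2, SE) with an adjusted p of 0.0340 by limma, and 1 of the 13 probes passed, Chd3, where 3.17% of all probes did. Since Chd3 was chosen from this contrast, nothing is read from that count. Array weights gave control replicate 1 the lowest weight, 0.366. With them Chd3 was at -0.45 ± 0.09 (log2, SE) with an adjusted p of 0.0461 by limma, where 474 of 34847 probes passed. For the same reason nothing is read from this call. Without the whole replicate 1 pair 0 of the 13 passed, with Chd3 at -0.51 ± 0.11 (log2, SE) and an adjusted p of 0.0520, where 4.57% of all probes passed.

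**Figure D2:**
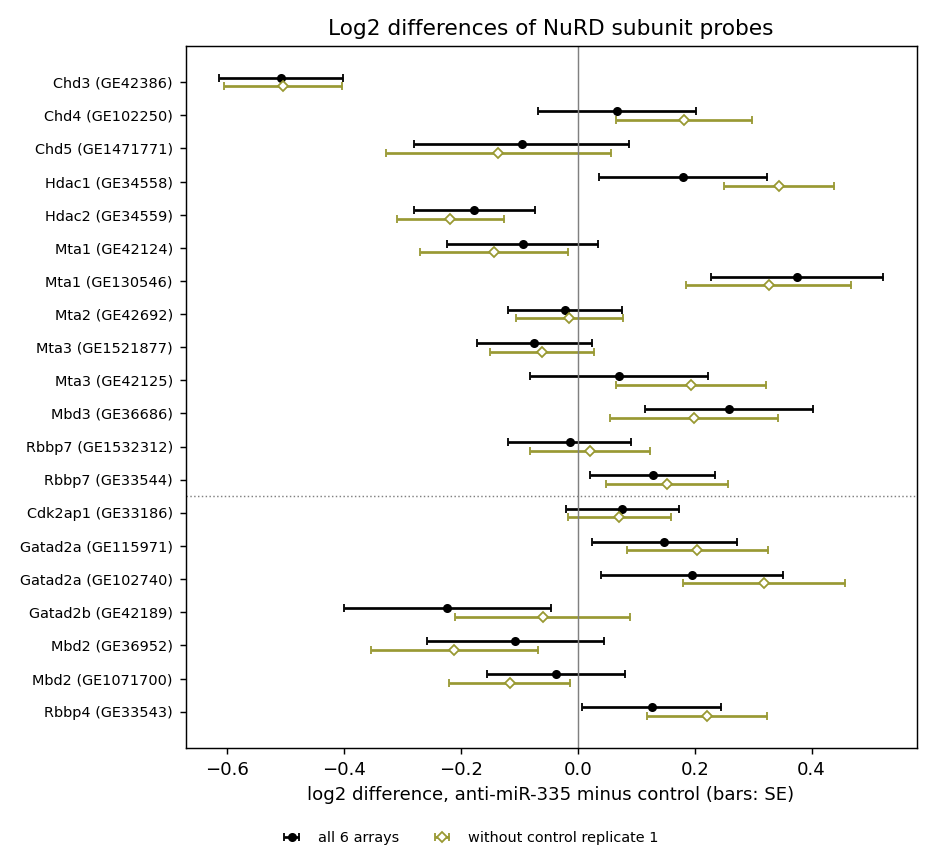
Log2 difference, anti-miR-335 minus control, with its SE (x axis) for the 13 NuRD probes above the dotted line and 7 probes of the other core subunits below it, named by gene and probe (y axis). Filled circles use all 6 arrays and open diamonds leave out control replicate 1; Chd3 lies near -0.5 in both, while Hdac1 moves from 0.18 to 0.35.

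The position of control replicate 1 differed between the members. On Chd3 it lay 0.01 (log2) from the mean of the other 2 controls, and the anti-miR-335 mean lay -0.50 from them. On Hdac1 it lay 0.49 above control replicates 2 and 3, further than the anti-miR-335 mean at 0.35, and on Chd4 it lay 0.34 above them against 0.18. Of the 13 probes, 7 had control replicate 1 nearer to the anti-miR-335 mean than to the other controls, where 61.8% of all probes above background did. Chd3, Mbd3, the dimmer Mta1 probe, Mta2, the brighter Mta3 probe and the dimmer Rbbp7 probe were the other 6.

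**Figure D3:**
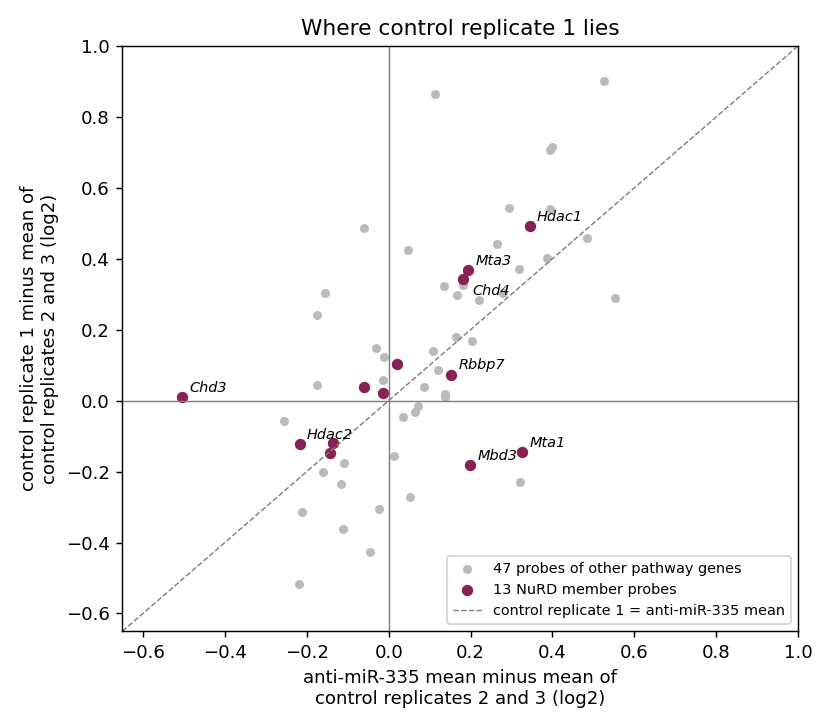
Each point is a probe above background on all arrays; the x axis gives the anti-miR-335 mean and the y axis control replicate 1, both as log2 distance from the mean of control replicates 2 and 3, for 13 NuRD probes (dark) and 47 probes of other pathway genes (grey). Points on the dashed line have control replicate 1 at the anti-miR-335 mean; Hdac1 and Chd4 lie above it on the right, and Chd3 lies far left at a height near 0.

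A ratio of probes on the same array does not depend on how the array was scaled, so Chd3 was set against each other subunit array by array. The log2 ratio of Chd3 to Chd4, relative to its control mean, came to -0.22, -0.01 and 0.23 for the controls, and to -0.36, -0.67 and -0.70 for the anti-miR-335 cultures. On average it was lower by 0.58 on the log2 scale in the anti-miR-335 arrays, or 1.49-fold. Control replicate 1 and anti-miR-335 replicate 1 were neighbours in this ratio, and the groups did not overlap. Against all 12 other member probes and 7 probes of the remaining core subunits, 18 of 19 ratios were below every control in the anti-miR-335 arrays, the exception being Gatad2b, with a median difference of -0.58. All 19 share the Chd3 values, and the same held for 76.6% of the 17842 probes above background, so the ratios describe Chd3 and not the subunits it was set against.

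**Figure D4:**
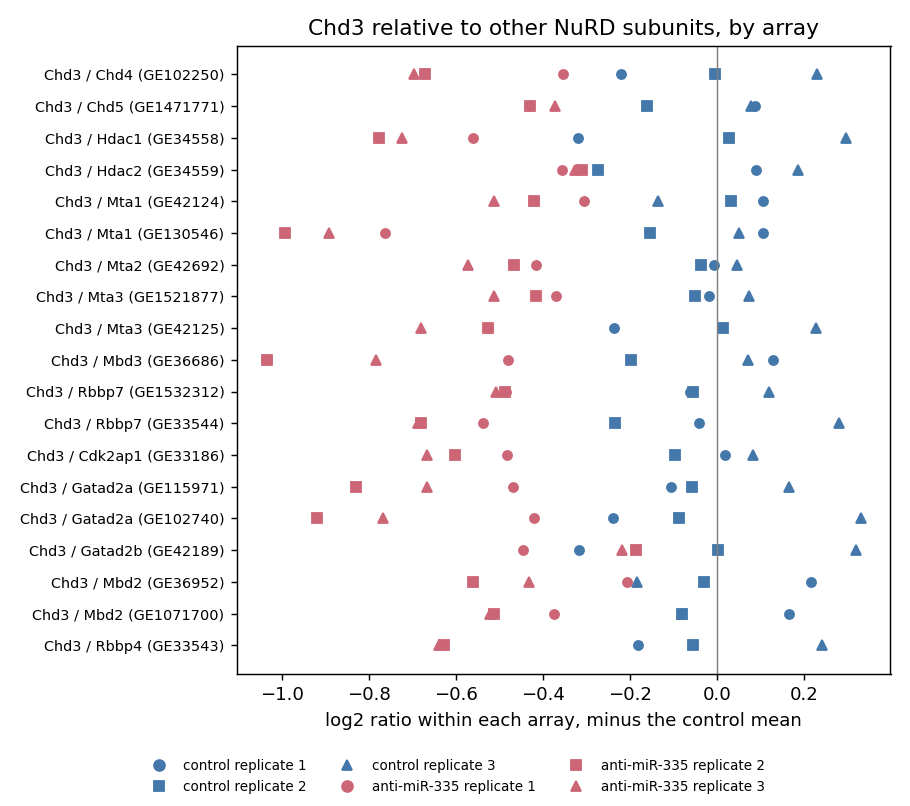
Log2 ratio of Chd3 to each other NuRD subunit probe within an array, minus the mean of the 3 controls (x axis), for 19 probes named on the y axis; blue symbols are control and red symbols anti-miR-335 arrays, by replicate. Red symbols lie left of all blue ones on every row except Chd3 / Gatad2b.

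Another 5 pairs of related subunits were compared in the same way, each gene by its brightest probe. The pairs were chosen after their values had been seen. The groups did not overlap for 2 of the 5, where they did not for 19.9% of all pairs of probes above background on every array, and nothing is read from that count. Mbd3 and Mbd2 encode subunits that exclude each other from the complex. Their log2 ratio was 0.09, 0.17 and -0.26 on the controls, relative to the control mean, and 0.27, 0.47 and 0.35 on the anti-miR-335 arrays. The mean difference was 0.37 with no overlap. A second Mbd2 probe lay at 12.3, 13.1 and 15.9 in the controls and 12.6, 14.1 and 13.3 in the anti-miR-335 arrays. With it the ratio overlapped between the groups, so the separation depended on the probe. The ratio of Hdac1 to Hdac2 was 0.41, -0.30 and -0.11 on the controls and 0.21, 0.47 and 0.40 on the anti-miR-335 arrays. These overlapped through control replicate 1, the mean difference being 0.36 over all arrays and 0.56 against control replicates 2 and 3. The ratio of Rbbp7 to Rbbp4 was lower by 0.14 on average with no overlap, a gap far smaller than the spread of the controls. It lay at -0.12, 0 and 0.12 on the controls and -0.15, -0.14 and -0.13 on the anti-miR-335 arrays. With the dimmer Rbbp7 probe in its place, the anti-miR-335 ratios all lay within the control range, so this separation too depended on the probe. The ratios of Mta1 to Mta2 and of Gatad2a to Gatad2b overlapped between the groups, with mean differences of -0.07 and 0.37. With the dimmer Mta1 probe the ratio to Mta2 was instead above every control on the anti-miR-335 arrays, so it has no single direction.

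The other core subunits were measured by 8 probes for all 5 genes, and 0 passed in either direction. Rbbp4, the partner of Rbbp7, lay at 80.1, 66.3 and 65.2 in the controls and 77.5, 78.5 and 74.1 in the anti-miR-335 arrays, again with control replicate 1 the highest (log2 difference 0.13 ± 0.12 SE). Gatad2a, which bridges the remodeller to the deacetylase part, lay at 43.7, 38.2 and 39.6 against 39.8, 52.0 and 43.5, a log2 difference of 0.15 ± 0.12 (SE) and 0.20 ± 0.16 on its second probe. Its relative Gatad2b lay at 2.73, 1.98 and 1.92 against 2.11, 1.80 and 1.72, a log2 difference of -0.22 ± 0.18 (SE) that shrank to -0.06 ± 0.15 without control replicate 1. Mbd2, the alternative to Mbd3, lay at 17.4, 18.6 and 25.0 against 16.5, 21.4 and 18.3 (log2 difference -0.11 ± 0.15 SE). Its second probe differed by -0.04 ± 0.12 and its dimmest, above background on 3 arrays, by 0.31 ± 0.37. Cdk2ap1, a small accessory subunit, lay at 11.4, 11.1 and 11.9 against 11.4, 12.6 and 12.3 (0.08 ± 0.10). Groups overlapped for all 8 probes.

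Further genes of the pathway gave 0 called probes in either direction by limma on all arrays. Proteins that recruit or bind NuRD were measured for 14 of 15 genes with 24 probes, with a median log2 difference of 0.03, 13 positive and 11 negative, and 3 had an unadjusted p under 0.05, all lower, namely both Ikzf1 probes, above background on 0 arrays, and 1 Sall4 probe, above it on 2 arrays. Such a p was reached by 9.07% of all probes, by 1 of the 27 probes of other HDAC1 and HDAC2 complexes (Sap18), and by 0 of 7 probes of other CHD genes and 0 of 8 of other core subunits. By the naming rule these are represented by Bcl11b, a transcription factor of cortical neurons, at 0.40 ± 0.20 (log2, SE) and 0.33 ± 0.25 on a second probe, both close to background, and Adnp, a partner of CHD4, at 0.50 ± 0.26 with no value on anti-miR-335 replicate 3. Other complexes that use HDAC1 and HDAC2 were measured for 19 of 20 genes with 27 probes, with a median of 0.07, 19 positive and 8 negative. Sap18, a subunit of the Sin3 corepressor, lay at 7.35, 5.76 and 6.29 in the controls and 7.92, 9.80 and 8.84 in the anti-miR-335 arrays, with no overlap and a log2 difference of 0.46 ± 0.13 (SE; adjusted p = 0.415 by limma). Without control replicate 1 it was the 1 probe called of 65 tested in the pathway lists (0.55 ± 0.11, adjusted p = 0.0315 by limma), where 3.17% of all probes were called. The corepressor scaffold gene Sin3a followed at 0.25 ± 0.16.

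The remaining CHD remodellers, which lie outside NuRD, were measured for 6 of 7 genes with 7 probes, Chd7 not being measured. They had a median of -0.05, with 2 positive and 5 negative. The genes named by the rule are the 2 positive ones. Chd1, with no value on anti-miR-335 replicate 1, differed by 0.19 ± 0.17 (log2, SE) and Chd6 by 0.12 ± 0.13. Over all 66 probes of these lists the median was 0.07, against 0.01 for all probes, and 39 were positive (59.1%, against 51.9% of all probes).

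The genes whose pattern over the 6 arrays was most like that of Chd3 were Arhgap28 (Pearson's r = 0.998), Zfp866 (0.994), Hyal6 (0.993), Rabgap1l (0.992) and BC055402 (0.992), among 12134 probes that name a single gene and exceed background on all arrays. The most opposed were 2310047K21Rik (-0.995), Cetn2 (-0.995), Zfp653 (-0.994), Vcam1 (-0.989) and Cd24a (-0.988). These are a description over 6 arrays that hold both groups, and genes were picked from all these probes for their r. Within the complex the brighter Mta3 probe had the highest r with Chd3 (0.750), followed by Chd5 (0.674) and Hdac2 (0.610). A higher r was reached by 6.65%, 9.79% and 12.4% of the probes compared, in that order. The dimmer Mta1 probe had the lowest r (-0.804). The other probes of these genes lay apart, the dimmer Mta3 probe at -0.223 and the brighter Mta1 probe at 0.533. Chd4 lay at -0.176.

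The summed levels of some marker lists did not overlap between the groups, and that of immediate early genes also set control replicate 1 apart from the other controls. The summed intensity of 10 immediate early genes, switched on within minutes of a stimulus, was 248 on control replicate 1, 147 and 145 on control replicates 2 and 3, and 303 to 409 on the anti-miR-335 arrays. Fos, at 83.8, 65.3 and 59.6 in the controls and 150, 186 and 106 in the anti-miR-335 arrays, took a large share. All 10 differences were positive, but 4 genes overlapped between the groups, and Fosb differed by 0.10 (log2). Atf3 lay lowest on control replicate 1, at 0.402 against 1.12 and 1.17 on the other controls. The sum over 9 neural precursor markers was 247 to 249 in the controls and 262 to 296 in the anti-miR-335 arrays. Fabp7, a bright radial glial gene, took a large share of that sum, at 100, 85.8 and 84.5 in the controls and 113, 109 and 108 in the anti-miR-335 arrays. Fabp7 and Hes5 were the 2 of the 9 whose groups did not overlap, both with every anti-miR-335 array above the controls, while the other 7 overlapped. The list's median log2 difference was 0.07, with negative differences for Nes (-0.15), Emx1 (-0.36, at background) and Emx2 (-0.25). Over 5 neuronal markers the sum was 6.82 to 10.6 in the controls against 9.08 to 12.6. By the brightest probe of each gene all 5 differences were positive (median 0.45), but only 3 genes exceeded background on all arrays. That median is the difference of Stmn2, which was above background on 0 arrays, and Map2 and Tubb3 differed by 0.19 and 0.18. Dcx alone did not overlap, at 2.56, 2.44 and 2.27 against 3.64, 5.53 and 5.81 (log2 difference 1.02 ± 0.18 SE). Its dimmer probe, above background on 1 array, lay at -0.27 ± 0.50. Map2 lay at 5.87 on control replicate 1, against 2.72 and 2.88 on the other controls, by its brighter probe. Its dimmer probe, above background on all 6 arrays, did not show this, at 2.6, 2.4 and 2.1 in the controls (log2 difference 0.02 ± 0.14 SE). The microglial list summed to 6.39 to 6.73 in the controls and 5.13 to 5.67 in the anti-miR-335 arrays over 5 measured genes, with Ptprc and Itgam not above background. That lower sum came with Trem2, at 4.64, 4.85 and 5.08 in the controls and 3.42, 3.19 and 3.21 in the anti-miR-335 arrays. Cx3cr1, the other microglial gene above background on most arrays, lay the opposite way (log2 difference 0.58 ± 0.25 SE). It lay at 0.584, 0.806 and 0.783 in the controls and 0.897, 0.978 and 1.40 in the anti-miR-335 arrays. The median log2 difference of the list was 0.23, which is that of Itgam. The part of these in the NuRD values was not tested.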

How the data were processed

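Per the labels, biotin-labelled cRNA from 2 µg of total RNA per culture was hybridised to CodeLink mouse arrays for 18 h. The deposited values are linear intensities which the authors divided by each array's median, per the labels. The scanning software was CodeLink Expression Analysis 4.1.0.29054, per the file headers. For replicate 1 of each group scanner output was used too, and on these 2 arrays all 35976 and 36032 deposited values equalled its normalized intensity within 0.0001. Its raw intensity is the spot mean minus the local background median.

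The 34967 gene probes were kept and 1260 control rows left out. Names came from the platform annotation, updated through RefSeq (GRCm38.p6). A probe was above background where it exceeded the negative controls' median by 3 scaled median absolute deviations (0.492 to 0.692). Intensities under the 5th percentile of positive values, 0.163, were raised to it before log2. The comparison used lmFit and eBayes of limma 3.58.1 (R 4.3.3), two-sided, with an intensity trend and no covariate, over 34847 probes that had 2 or more values in each group, with Benjamini-Hochberg adjustment and a threshold of 0.05. The script was tested on simulated data. The number of arrays limits the precision. For the background limit, the floor and the naming of genes, fixed rules were used: every member, all 5 other core subunits, the 2 smallest p among bright enough genes of each further list (above background on at least 3 arrays), each gene by its brightest probe, and the 5 highest and lowest correlations with Chd3. The members and lists were chosen with earlier results of these data known.

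Alternatives were quantile normalization, other floors, leaving out dim probes, a replicate block, no intensity trend, array weights, and leaving out arrays or pairs. A further one took the replicate 1 arrays alone, from scanner intensities divided by the array median, which is the same scaling as the deposited values. Same-numbered arrays deviated from their group means with correlations of -0.231, 0.0388 and -0.255, so the numbers were not taken as pairs.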

Additional observations from a re-analysis of the deposited data

How the results depend on the processing

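The count of 0 probes called, over all gene probes, over the 13 NuRD probes and over the 66 probes of the pathway lists, stayed at 0 with no floor, a floor at the 20th percentile, dim probes left out, the replicate block and no intensity trend. With quantile normalization 1 probe was called in all. Array weights gave 474 in all, 1 NuRD probe (Chd3) and 1 list probe (Sap18). Leaving out arrays or pairs gave 0 to 1571 in all, 0 to 1 NuRD probe and 0 to 4 list probes, the counts above 0 coming without control replicate 1 (1100, 1 and 1), without anti-miR-335 replicate 1 (1, 0 and 0) and without the replicate 1 pair (1571, 0 and 4). The cause was not tested.

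The Chd3 log2 difference was at -0.598 to -0.414 over the leave-out cases, -0.505 without control replicate 1 and -0.454 with array weights. Its direction was the same under all 17 alternatives, but Chd3 was chosen from this contrast. Because its groups did not overlap, leaving out arrays or pairs could not reverse the direction. The other floor settings, leaving out dim probes and the trend setting left it at -0.508. Nothing is therefore read from the kept direction. The replicate numbers gave no reason to pair the arrays, and with the replicate block Chd3 was at -0.508 (SE 0.133) and no call changed. Differences near 0 changed sign. Array weights turned Mta2 to 0.031 and the brighter Rbbp7 probe to 0.027. Leave-out cases ran from 0.106 to 0.395 for Mbd3, -0.068 to 0.284 for Chd4, -0.204 to 0.040 for the brighter and 0.300 to 0.440 for the dimmer Mta1 probe, -0.083 to 0.022 for Mta2, -0.005294 to 0.212 for the dimmer Mta3 probe and -0.073 to 0.021 for the brighter Rbbp7 probe. In the replicate 1 arrays alone, Chd4 was at -0.366 and Hdac1 at -0.258. These came from scanner intensities divided by the array median, which is how the deposited values were scaled. They are therefore the difference of the same 2 arrays and not a separate measurement. With 3 arrays per group, all member probes except Chd3 and the dimmer Mta1 probe had 95% intervals that include 0.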
